A study of Mus musculus with 1 sample.

Results

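The 6 genes described here encode the enzymes and the cofactor with which the exocrine pancreas digests dietary fat. They were Pnlip, Pnliprp1, Pnliprp2, Clps, Cel and Pla2g1b, taken by symbol from the 32285 genes listed in 1 single-cell RNA sequencing library of mouse pancreas. The library was made from pancreata of 5 to 6 Scap f/f mice aged 2 weeks, pooled with equal numbers of males and females, after enzymatic dissociation and removal of dead cells. Scap f/f mice carry floxed alleles of Scap, which encodes the escort protein needed for SREBP activation, and without Cre their Scap is intact, so the library stands for wildtype tissue. The study set it beside Scap Δpanc pancreas, in which Pdx1-Cre removes Scap, and that library was not analysed here. All mice were of the same age, before weaning, so no comparison with older or weaned mice was made.

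Acinar cells secrete these proteins into the gut. Pancreatic triglyceride lipase, the product of Pnlip, cleaves dietary triglycerides, and bile salts inhibit it unless colipase, the product of Clps, anchors it to the lipid droplet. Pnliprp2 encodes a related lipase that also cleaves phospholipids and galactolipids and is known for its part in milk fat digestion in suckling rodents, whereas the related product of Pnliprp1 has little known lipase activity. Cel encodes the bile salt-stimulated lipase, which hydrolyses cholesteryl esters as well as glycerides and is also a milk enzyme in some species. Pla2g1b encodes the secreted pancreatic phospholipase A2, which is made as a proenzyme and activated by trypsin.

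The 3 lipase genes with a shared ancestry lay close together on the plus strand of chromosome 19 in the build GRCm38, within 125 kb. Pnlip spanned chr19:58652498-58681788, Pnliprp1 spanned chr19:58728887-58744169 and Pnliprp2 spanned chr19:58759719-58777534. The gap was 47098 bases between Pnlip and Pnliprp1 and 15549 bases between Pnliprp1 and Pnliprp2. Between Pnlip and Pnliprp1 lay the noncoding RNA gene AC102548.1 and the pseudogene 1810018F18Rik. Clps lay on the minus strand at chr17:28558149-28560766 with the microRNA gene Mir6969 inside it on the same strand. Cel lay on the minus strand at chr2:28555795-28563403 and overlapped the gene Gm13381 on the opposite strand, and Pla2g1b lay on the plus strand at chr5:115466262-115474722. The annotated transcripts of any pair of the 6 genes shared no stretch of 30 bases, so reads of this length or longer could be told apart between members.

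The promoters of the 3 neighbouring lipase genes and of Cel are shown because these genes share a tissue and yet differed in level by up to 927-fold. Each line holds the 250 bases before the RefSeq transcript start in GRCm38.p6, read 5′ to 3′ on the strand of the gene, at chr19:58670115-58670364 for Pnlip, chr19:58728637-58728886 for Pnliprp1, chr19:58759473-58759722 for Pnliprp2 and chr2:28563404-28563653, minus strand, for Cel. The RefSeq start of Pnlip lay inside the longer gene span given above. Capitals mark matches, on either strand, to the E-box CANNTG or the TC-box TTTCCC, the letters to which the acinar factor PTF1 binds together, and no match of one overlapped a match of the other.
Pnlip: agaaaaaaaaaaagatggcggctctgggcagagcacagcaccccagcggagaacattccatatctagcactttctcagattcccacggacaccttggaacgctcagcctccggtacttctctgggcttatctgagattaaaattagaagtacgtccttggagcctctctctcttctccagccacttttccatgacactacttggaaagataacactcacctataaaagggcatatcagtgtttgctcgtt
Pnliprp1: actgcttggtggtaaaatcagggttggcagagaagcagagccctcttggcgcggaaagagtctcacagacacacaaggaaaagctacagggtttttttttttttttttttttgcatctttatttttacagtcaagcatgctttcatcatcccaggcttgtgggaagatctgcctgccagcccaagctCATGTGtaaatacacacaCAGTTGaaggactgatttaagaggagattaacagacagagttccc
Pnliprp2: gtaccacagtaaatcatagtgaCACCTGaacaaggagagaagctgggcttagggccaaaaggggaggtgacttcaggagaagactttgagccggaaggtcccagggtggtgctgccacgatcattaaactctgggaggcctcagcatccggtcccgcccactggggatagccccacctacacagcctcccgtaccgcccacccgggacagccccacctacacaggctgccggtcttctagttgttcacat
Cel: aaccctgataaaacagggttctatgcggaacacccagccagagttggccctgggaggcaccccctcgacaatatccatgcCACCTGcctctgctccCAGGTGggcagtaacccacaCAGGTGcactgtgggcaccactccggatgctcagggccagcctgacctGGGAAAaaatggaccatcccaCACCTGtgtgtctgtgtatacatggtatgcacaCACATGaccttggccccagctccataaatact

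The Pnliprp1 window held 2 E-boxes, that of Pnliprp2 held 1 and that of Cel held 5 E-boxes and 1 TC-box. The Pnlip window held none of either, and its TATAAA began at -30 relative to the start, the only such match among the windows of the members. Of 32851 RefSeq mouse promoters cut to the same length, 66.2% held an E-box, 21.9% a TC-box, 14.2% both and 12.4% TATAAA. The Cel window also held AAGGTCA, the core letters bound by the acinar factor NR5A2, which 4.08% of promoters held. The Pla2g1b window held no match to any of these 4 motifs, and Clps was not in the promoter table. A match is a description of letters and not of a bound site, and a window without a match says nothing of the factor.

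Levels are counts of unique molecular identifiers (UMIs), each standing for a captured transcript, scaled to 1000000 UMIs of the same barcodes (CPM), and since only the 3′ end is read they need no correction for gene length. The library held 11789 barcodes, and 10947 of them passed limits of 800 and 100000 UMIs and of 15% mitochondrial UMIs, at a median of 2650 UMIs. The acinar gate took barcodes in which 8 enzymes, Ctrb1, Pnliprp1, Clps, Reg1, Cela2a, Cpa1, Cela3b and Cpb1, made up at least 10% of UMIs. It held 1348 barcodes, 12.3% of those kept, with 14652335 UMIs. Acinar transcription factors were present in it, with Rbpjl at 207 CPM, Nr5a2 at 156 CPM, Ptf1a at 57.5 CPM and Bhlha15 at 53.0 CPM. Nr5a2 is not particular to acinar barcodes, since it stood at 355 CPM in barcodes gated on duct markers. The acinar gate also held Col1a1 of fibroblasts at 882 CPM, Ins1 of beta cells at 56.2 CPM and Ptprc of leukocytes at 31.5 CPM. The Ptprc gate served to measure the ambient level, that is, free RNA caught in droplets. It took 1359 barcodes outside the acinar gate with at least 1 UMI of the leukocyte gene Ptprc that met the threshold of no other gate. Markers of other cells were not absent from it, with Col1a1 at 595 CPM and the endothelial gene Pecam1 at 136 CPM. Since 2 members, Pnliprp1 and Clps, help define the acinar gate, their height there is partly set by the rule, and each value was also taken in a gate on the 6 other enzymes at 7.5% of UMIs. With 1 library there were no replicates, no test was possible, and the 95% intervals given cover counting error only.

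Pnliprp1 and Clps dominated the 6 genes, and Pnlip was the rarest of them. In the acinar gate Pnliprp1 stood at 49223 CPM (exact Poisson interval 49109.6-49337), or 4.92% of all UMIs, and Clps stood at 48576 CPM (48463-48689). Cel followed at 11182 CPM (11128-11237) and Pnliprp2 at 1619 CPM (1599-1640.2). Pla2g1b reached 391 CPM (381-401). Pnlip, the gene of the classical colipase-dependent lipase, came last at 53.1 CPM (49.4-57.0), from 778 UMIs among all acinar barcodes. Together the 6 genes gave 11.1% of acinar UMIs.

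Each step in this order was larger than its counting error, although that between Pnliprp1 and Clps was only 1.01-fold (exact interval 1.01-1.02) and does not hold across acinar barcodes of different depth. Clps exceeded Cel 4.34-fold, Cel exceeded Pnliprp2 6.90-fold, Pnliprp2 exceeded Pla2g1b 4.14-fold and Pla2g1b exceeded Pnlip 7.36-fold. There were 927 Pnliprp1 UMIs (864-996) and 30.5 Pnliprp2 UMIs (28.4-32.8) for each Pnlip UMI. Colipase transcripts were about as many as those of the lipase family, with 0.954 Clps UMIs (0.951-0.958) per UMI of Pnlip, Pnliprp1 and Pnliprp2 summed. Of the 6 genes' UMIs in the acinar gate, 44.3% came from Pnliprp1, 43.7% from Clps, 10.1% from Cel, 1.46% from Pnliprp2, 0.352% from Pla2g1b and 0.0478% from Pnlip.

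The levels hardly differed when the gate was built without members. In the 1305 barcodes gated on Ctrb1, Reg1, Cela2a, Cpa1, Cela3b and Cpb1, Pnliprp1 stood at 49589 CPM, Clps at 48821 CPM, Cel at 11271 CPM, Pnliprp2 at 1632 CPM, Pla2g1b at 393 CPM and Pnlip at 53.4 CPM. Just outside the 10% limit, in 59 barcodes with 8 to 10% of UMIs from the 8 enzymes, Pnliprp1 stood at 12089 CPM and Clps at 17209 CPM, with 2 Pnlip UMIs. Just inside it, in 63 barcodes at 10 to 12%, the values were 14883 CPM for Pnliprp1 and 19624 CPM for Clps, with 7 Pnlip UMIs.

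Almost all captured transcripts of the members that did not define the gate lay in acinar barcodes. The acinar gate held 29.8% of the kept UMIs of all genes together. Of the kept UMIs of each of these members it held between 93.7% (Pla2g1b) and 95.9% (Cel), including 778 of 822 Pnlip UMIs. It also held 94.9% of those of Pnliprp1 and 93.3% of those of Clps, shares that the gate partly sets. In the Ptprc gate Clps was the highest at 1602 CPM, followed by Pnliprp1 at 1188 CPM, Cel at 217 CPM, Pnliprp2 at 35 CPM and Pla2g1b at 13.9 CPM, and Pnlip gave 1 UMI. All 6 members were at least 10-fold higher in the acinar gate than in the Ptprc gate, against 2.77% of 13996 genes with enough UMIs, whose median ratio was 0.623. For Pnliprp1 and Clps this contrast was partly used by the gate and nothing is read from it.

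Of the members that did not define the gate, Cel was 51.5-fold higher (47.9-55.5) in the acinar gate, Pnliprp2 46.3-fold higher (38.6-56.1) and Pla2g1b 28.2-fold higher (21.1-38.6). For Pnlip the ratio was 176 with an interval of 31.5 to 6968, since a single UMI stood against it, at 0.301 CPM (0.00763-1.68). In all kept barcodes outside the acinar gate Pnlip stood at 1.27 CPM (0.925-1.71) from 44 UMIs. The ratio of 176 is therefore not read as a stronger restriction of Pnlip than of the other members. In the gate without members Pnliprp1 was 40.3-fold (39.1-41.5) and Clps 29.1-fold (28.3-29.8) higher. The 6 enzymes of that gate ranged from 35.3- to 62.8-fold with the 8-enzyme gate. They help define that gate too, so their folds are partly set by the rule and nothing is read from them. The size of the members' folds depended on the gate and the scale, since with the acinar gate at 25% of UMIs the members ranged from 13.0- to 18.4-fold, and with digestive enzymes left out of the scaling from 52.9- to 110.3-fold, in both with Pnlip at a floor of 3 UMIs where it had fewer in the Ptprc gate.

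**Figure D1:**
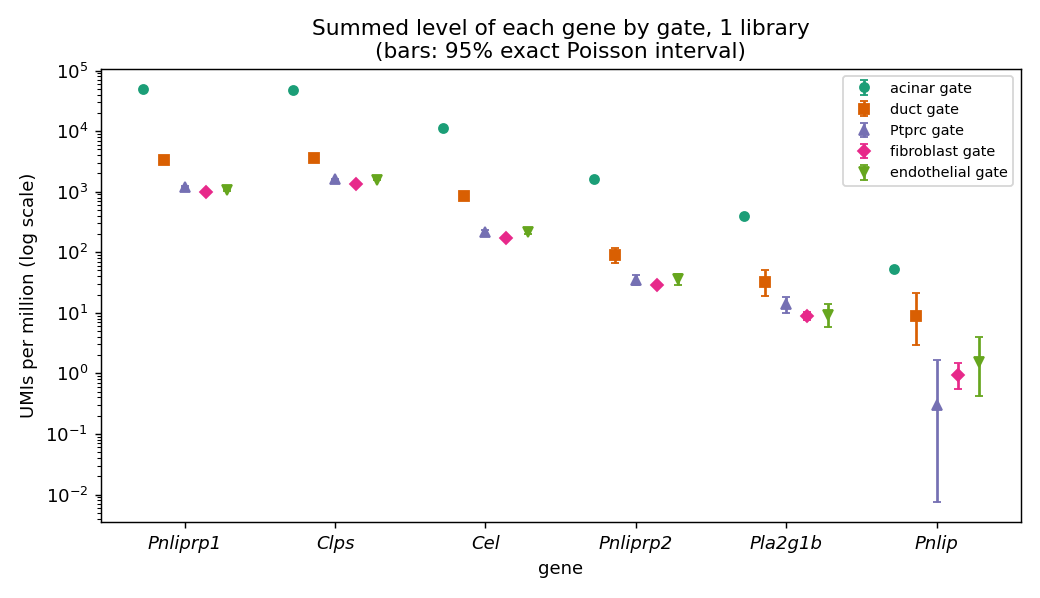
Summed level of each gene in CPM (log axis) in the acinar, duct, Ptprc, fibroblast and endothelial gates of the library, with 95% exact Poisson intervals. The acinar gate is highest for each gene, from 49223 for Pnliprp1 to 53.1 for Pnlip, and the Ptprc, fibroblast and endothelial gates lie close together except for Pnlip, which rests on 1 UMI in the Ptprc gate.

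Outside the acinar gate the members kept a similar low level in unrelated cell types. Pnliprp1 stood at 988 CPM in the fibroblast gate, 1056 CPM in the endothelial gate and 1059.7 CPM in the mesothelial gate, and Clps at 1355, 1583 and 1478 CPM in the same gates. For these 2 genes the 10% limit on the 8 enzymes partly sets how high they can stand there. Of the members outside that sum, Cel stood at 169, 218 and 166 CPM and Pnliprp2 at 28.8, 35.6 and 34.7 CPM. Pla2g1b stood at 8.87, 9.28 and 14.1 CPM, and Pnlip at 0.936, 1.55 and 2.57 CPM from 17, 4 and 2 UMIs. The duct gate, 38 barcodes with duct markers, gave higher sums, with Pnliprp1 at 3353 CPM, Clps at 3589.8 CPM, Cel at 863 CPM and Pnliprp2 at 89.7 CPM. A few barcodes carried these sums, since the highest barcode of each gene held 617 of the 1868 Pnliprp1 UMIs and 187 of the 481 Cel UMIs. The median duct barcode had 1271 CPM of Pnliprp1, against 964 CPM in the Ptprc gate, and 1962 CPM of Clps, against 1434 CPM. Of the acinar transcription factors, Rbpjl stood at 70.0 CPM in the duct gate, with 12 of its 39 UMIs in 1 barcode. Nr5a2 stood at 355 CPM there, while Ptf1a gave 2 UMIs and Bhlha15 gave 1. The part of acinar RNA in these values was not tested. Pnlip gave 5 UMIs in the duct gate, or 8.97 CPM (2.91-20.9).

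The share of barcodes with a UMI followed the level and the depth. Every acinar barcode held Pnliprp1 and Clps, and 99.9% held Cel, 90.9% Pnliprp2, 71.6% Pla2g1b and 25% Pnlip (exact interval 22.7-27.4), at a median of 4410 UMIs. In the Ptprc gate, with a median of 1745 UMIs, 94.7% of barcodes held Clps, 85.7% Pnliprp1, 34.5% Cel, 7.73% Pnliprp2, 3.24% Pla2g1b and 0.0736% Pnlip. A UMI of Clps or Pnliprp1 therefore did not mark an acinar cell in this library, and Pnlip was seen in 1 Ptprc barcode. After each barcode was thinned to 800 UMIs, Pnlip was found in 4.01% of acinar barcodes (3.02-5.19) and again in 0.0736% of Ptprc barcodes, Pla2g1b in 25.7% against 1.18%, and Pnliprp2 in 60.5% against 2.28%. All 6 members were found together in 295 acinar barcodes, 21.9%, and in 0 of 1359 Ptprc barcodes, which allows a share of up to 0.221% by 3 counts and of up to 0.271% by the exact interval.

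The make-up of the 6 genes' UMIs differed between kinds of acinar barcode. These were divided into 384 with 10000 or more UMIs and 964 with fewer. The 964 were divided into 300 poor in nuclear RNA and 664 not poor in it. Poor meant a summed share of 6 nuclear RNAs such as Malat1 below 0.176% of the UMIs other than those of digestive enzymes. This cut was 0.2 of the median share of all kept barcodes. Clps held 41.5% of the members' UMIs in the deep barcodes, 47.1% in the nuclear-poor and 52.4% in the nuclear ones. Cel held 11%, 7.45% and 7.14% in the same order. In the Ptprc gate the shares were 52.4% for Clps, 38.9% for Pnliprp1 and 7.1% for Cel, and in the fibroblast gate they were 53.1%, 38.7% and 6.64%. The make-up in these non-acinar gates thus lay close to that of the nuclear acinar barcodes and away from that of the deep ones.

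**Figure D2:**
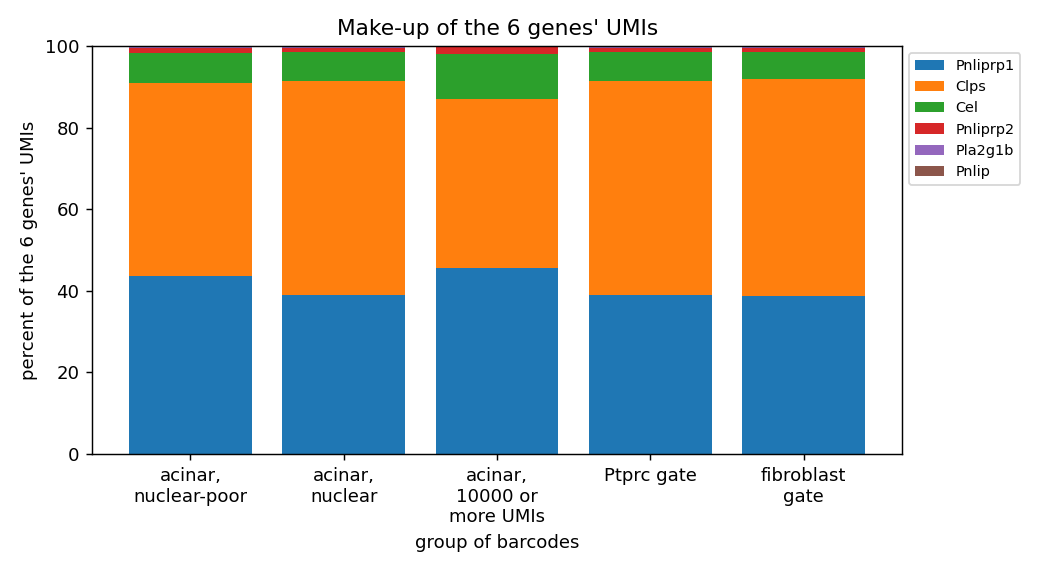
Percent of the 6 genes' UMIs from each gene in 3 groups of acinar barcodes and in the Ptprc and fibroblast gates. Clps takes 41.5% in the acinar barcodes of 10000 or more UMIs and 52.4% in the Ptprc gate, and Pla2g1b and Pnlip, under 1% each, are too small to see.

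The ratios of Clps and of Cel to Pnliprp1 ran in opposite directions along the depth of the barcode. Clps UMIs per Pnliprp1 UMI were 1.48 (1.44-1.52) in acinar barcodes of 800 to 2000 UMIs, 1.26 at 2000 to 5000, 1.18 at 5000 to 10000, 1.15 at 10000 to 20000, 0.882 at 20000 to 50000 and 0.821 (0.816-0.826) at 50000 to 100000. Cel UMIs per Pnliprp1 UMI were 0.170 (0.161-0.180), 0.170, 0.190, 0.215, 0.235 and 0.264 (0.262-0.267) in the same bins. Clps was thus the most abundant member in barcodes under 20000 UMIs and Pnliprp1 in those above. Pnliprp2 per Pnliprp1 went from 0.0233 (0.0202-0.0268) to 0.0343 (0.0335-0.0351) between the lowest and the highest bin. Pla2g1b per Pnliprp1 was 0.00856 (0.00673-0.0107) in the lowest bin, from 75 UMIs, and 0.00696 (0.00661-0.00733) in the highest. Between these it was 0.00945 at 2000 to 5000 UMIs and 0.00921 at 10000 to 20000, so it had no steady direction. The 6 enzymes of the gate made up 16.0% of UMIs in the lowest bin and 21.6 to 23.6% in the others, and Ctrb1 per Pnliprp1 went from 2.30 to 1.5, so the Clps ratio was not alone in this direction.

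**Figure D3:**
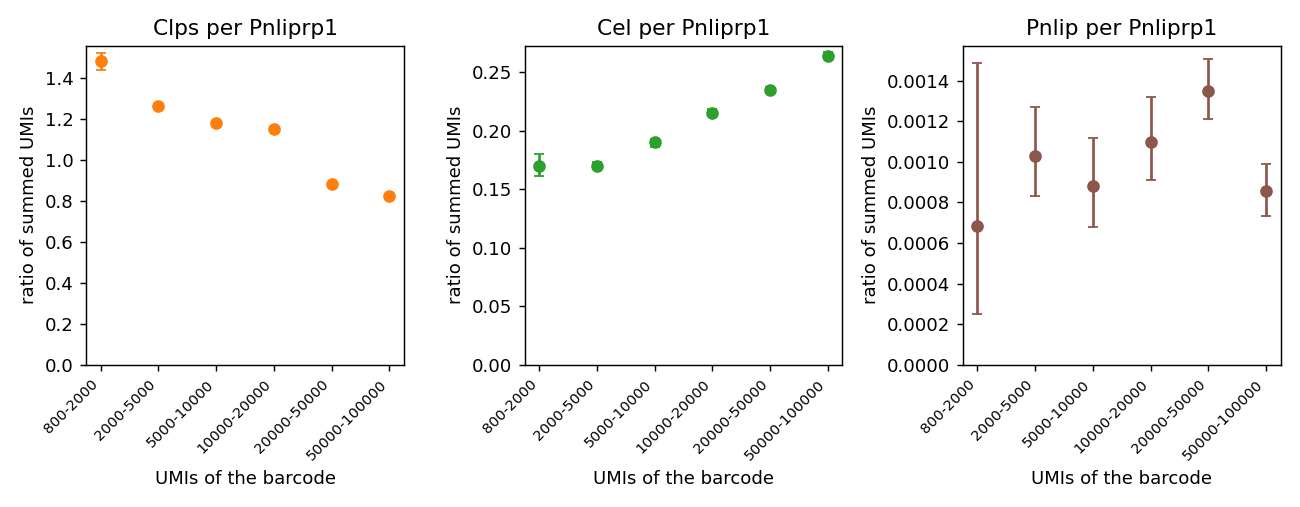
Summed UMIs of Clps, Cel and Pnlip per summed UMI of Pnliprp1 in 6 bins of acinar barcodes by their UMIs, with 95% exact intervals and each vertical axis starting at 0. The Clps ratio goes from 1.48 down to 0.821 and the Cel ratio from 0.170 up to 0.264, while the Pnlip intervals are wide and the ratio has no steady direction.

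Split at 10000 UMIs, Clps per Pnliprp1 was 1.24 (1.23-1.25) below and 0.910 (0.906-0.913) above, and Cel per Pnliprp1 was 0.178 (0.176-0.180) below and 0.242 (0.241-0.244) above. With the mean Ptprc-gate UMIs per barcode subtracted, the values were 1.24 and 0.909 for Clps and 0.178 and 0.242 for Cel. Without the 106 acinar barcodes that Scrublet marked as doublets they were 1.22 and 0.906 for Clps and 0.178 and 0.242 for Cel. Single barcodes overlapped widely all the same. Clps per Pnliprp1 had a median of 0.993 with a 5th to 95th percentile range of 0.541 to 1.94 among deep barcodes, and a median of 1.33 with a range of 0.586 to 3.34 among nuclear ones.

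As CPM, Cel went from 5702 to 14806, Pnliprp2 from 779 to 1920.3 and Pnliprp1 from 33465 to 56003 between the lowest and the highest depth bin, and Clps from 49636 to 45971. Clps was highest between these ends, at 61526 CPM in the bin of 2000 to 5000 UMIs. Pooled at 10000 UMIs the differences were smaller for Cel, Pnliprp2 and Pnliprp1 and larger for Clps. In the deep barcodes against those under 10000 UMIs, Cel was 1.49-fold higher (1.47-1.5), Pnlip 1.29-fold (1.08-1.54), Pnliprp2 1.23-fold (1.19-1.27) and Pnliprp1 1.09-fold (1.09-1.10). The ratio was 0.896 (0.846-0.951) for Pla2g1b and 0.803 (0.799-0.807) for Clps. The Pnlip value hung on 9 deep barcodes with 10 or more Pnlip UMIs. In the other 375 deep barcodes Pnlip stood at 42.7 CPM, against 43.7 CPM under 10000 UMIs, so no rise of Pnlip is read. None of the 6 members reached 2-fold higher, against 10.4% of 12903 genes tested, and the members' median of 1.16 equalled that of all genes. Among shallower barcodes, the members were 1.27-fold (Clps) to 1.66-fold (Pnlip, 1.19-2.29) higher in nuclear-poor than in nuclear ones. Again none reached 2-fold, against 0.149% of 9376 genes, whose median ratio was 0.462, and the 6 other gate enzymes ranged from 1.39- to 1.71-fold. Col1a1 stood at 2003 CPM and Ptprc at 97.8 CPM in the nuclear barcodes and at 924 and 12.9 CPM in the nuclear-poor ones, and 12.5% against 1.67% of them were marked as doublets. The part of these cells in the members' ratios was not tested.

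Scaled to UMIs other than those of digestive enzymes, the nuclear-poor ratios were 2.51 (1.80-3.47) for Pnlip, 2.47 (2.33-2.61) for Pnliprp2, 2.39 (2.37-2.41) for Pnliprp1, 2.22 (2.17-2.27) for Cel, 2.14 (1.93-2.38) for Pla2g1b and 1.92 (1.90-1.93) for Clps. The change of scale multiplies all genes by the same factor, so the order of the members is the same on both scales, with Clps lowest, at the 97.6th percentile of all genes tested. The interval of Pnlip covers the values of all other members, so its place in this order is not read. The share of all genes past 2-fold is not given on this scale, so values above 2 are not read as calls.

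Across bands of the 6 gate enzymes that are no members, the members' levels were followed at a height set by other genes. In barcodes with 7.5 to 15% of UMIs from those enzymes Pnlip stood at 12.7 CPM (8.12-18.9), at 15 to 25% at 53.8 CPM (48.6-59.5), at 25 to 35% at 67.8 CPM (60.7-75.4) and at 35 to 60% at 59.5 CPM (37.7-89.2). Pnliprp1 stood at 25339, 49706, 57826 and 60202 CPM in these bands. Pnlip per Pnliprp1 was 0.000500 (0.000321-0.000745) in the lowest band, from 24 Pnlip UMIs, and 0.00108 (0.000978-0.00120) in the next, at median depths of 3106 and 6633 UMIs. In bands of the 8-enzyme sum the ratio was 0.00144 (0.000468-0.00337) at 5 to 8% and 0.000560 (6.78e-05-0.00202) at 8 to 10%. It was 0.00137 (0.000551-0.00283) at 10 to 12% and 0.000269 (3.26e-05-0.000972) at 12 to 15%. These 4 values rest on 5, 2, 7 and 2 Pnlip UMIs and have no steady direction. All these intervals leave out the spread of Pnlip between barcodes, so no difference is read from them. Pla2g1b stood at 179, 352, 515 and 639 CPM, and Clps at 28596, 46299.7, 58466 and 71057 CPM.

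Pnlip was unevenly spread over the deep acinar barcodes. Of the 1348 acinar barcodes 1011 held no Pnlip UMI, 192 held 1, 111 held 2 to 4, 25 held 5 to 9 and 9 held 10 or more. These 9 were all deep and held 170 of the 778 UMIs, 21.9%, with 34 UMIs in the highest. That barcode had 27993 UMIs, so Pnlip stood at 1215 CPM in it, beside 43439 CPM of Pnliprp1, 1893 CPM of Pnliprp2 and 75233 CPM of Clps. In the second highest, with 24 Pnlip UMIs among 32087, Pnlip stood at 748 CPM and Pnliprp1 at 31570.4 CPM. The Pnliprp1 levels of the 9 barcodes ran from 29579 to 74092 CPM, and the other 375 deep barcodes had a 5th to 95th percentile range of 20252 to 73429 CPM. The variance of Pnlip over deep barcodes was 5.85 times that of binomial sampling, against 4.88 for Pnliprp2, 7.80 for Pla2g1b, 38.2 for Cel, 77.8 for Pnliprp1 and 107 for Clps, a measure that grows with the count of the gene.

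**Figure D4:**
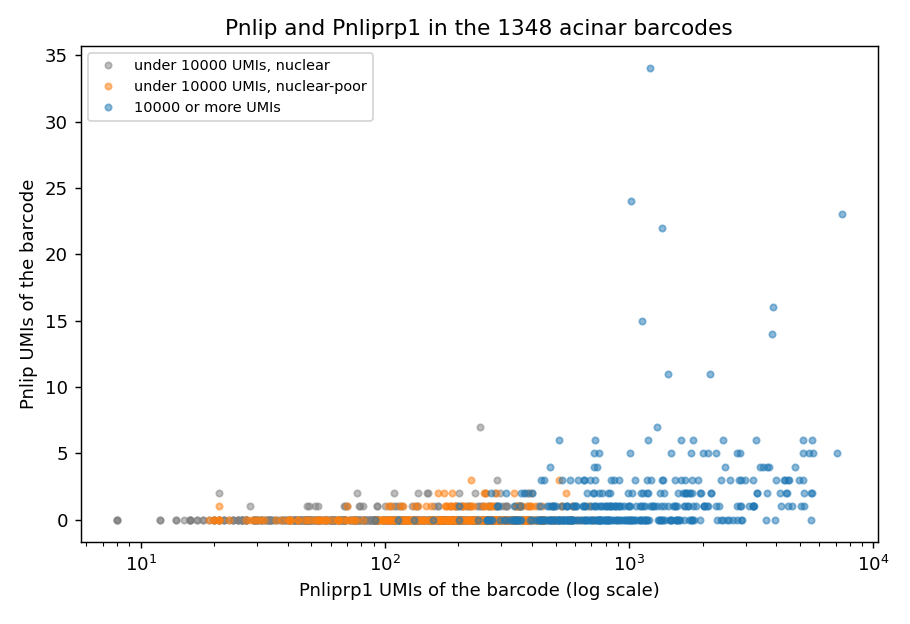
Pnlip UMIs (linear axis) against Pnliprp1 UMIs (log axis) in each of the 1348 acinar barcodes, coloured by depth and nuclear RNA. Of all these barcodes 1011 lie at 0 and 192 at 1 Pnlip UMI, and 9 barcodes of 10000 or more UMIs reach 10 to 34.

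No direction with depth was established for Pnlip. Pnlip per Pnliprp1 was 0.00112 (0.00103-0.00121) in deep barcodes and 0.000949 (0.000808-0.00111) in the others, a ratio of 1.18 with an interval of 0.989 to 1.41. Leaving out the 9 barcodes, which were chosen by their Pnlip count and are all deep, can only lower it, and it was then 0.891 (0.743-1.07). Thinned to 800 UMIs a barcode it was 2.00 (1.15-3.44), from 27 and 32 Pnlip UMIs in 1 random draw. With all UMIs kept and each barcode's own ratio averaged, it was 1.19.

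Among acinar barcodes thinned to 800 UMIs, the genes whose levels most resembled Pnliprp1, Clps and Cel encode secreted acinar proteins. Over 1348 barcodes and 231 genes, Pearson's r with Pnliprp1 was 0.72 for Cpb1 and 0.68 for Cpa1, which encode carboxypeptidases, and 0.66 for 2210010C04Rik. With Clps it was 0.59 for the chymotrypsinogen gene Ctrb1, 0.52 for the trypsin inhibitor gene Spink1 and 0.48 for Rnase1. With Cel it was 0.58 for Reg1 and 0.53 for both Cpb1 and 2210010C04Rik. Pairs of members reached 0.59 (Cel and Pnliprp1), 0.47 (Clps and Pnliprp1) and 0.29 (Cel and Clps), and r of Clps was higher with Ctrb1 than with any other member. For Pnliprp2 the first 3 were Cpb1 (0.34), Reg1 (0.32) and Cela3b (0.31), for Pla2g1b they were Cela1 (0.19), Try4 (0.18) and Cela2a (0.17), and for Pnlip they were Try4 (0.11), Dmbt1 (0.09) and Fkbp11 (0.07). The last 2 members are too sparse at this depth for such values to be a finding. All points share 1 library and 1 depth, a gate that fixes the sum of 8 of these genes from below, and the share of other cells' RNA, and r is given as a description over barcodes that are not replicates.

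Of 18 other genes of lipid hydrolysis listed for comparison, 17 were in the files and 13 had enough UMIs to be compared between the acinar and Ptprc gates, with a median ratio of 0.740. The 4 that had not were Lipc, Lipg, Lipf and Clpsl2, a colipase-like gene whose 6 UMIs all lay in the acinar gate. Among the 13, Ces1d was 32.7-fold higher with the 0 UMIs of the Ptprc gate set to 3, a value that depends on this floor. Pla2g7, a phospholipase gene, was lower past 10-fold, with 3 acinar UMIs against 37 (ratio 0.0184, 0.00362-0.0580). Lpl, the lipoprotein lipase that releases fatty acids from circulating triglyceride, stood at 1623 CPM in the fibroblast gate and 110.4 CPM in the acinar gate. Gpihbp1, which carries that lipase across capillary walls, stood at 299 CPM in the endothelial gate and 7.1 CPM in the acinar gate, and Mgll, the monoglyceride lipase, at 401 and 73.4 CPM. Lipf, the gastric lipase gene, had 0 UMIs in all kept barcodes. Ces1d, a carboxylesterase gene named after its values were seen, stood at 447 CPM in the duct gate, where 84.2% of barcodes held it, at 29.6 CPM in the acinar gate and at 0 UMIs in the Ptprc gate. Within the acinar gate Ces1d was 11.8-fold higher (6.68-23.0) in deep than in shallower barcodes, a contrast in which 10.4% of genes tested reached 2-fold. Of the 95 acinar barcodes that held it 87 were deep, with up to 41 UMIs in 1. The interval leaves out this spread between barcodes, and the part of duct cells in it was not tested.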

How the data were processed

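The authors pooled pancreata of 2-week-old Scap f/f mice, built a 3′ droplet library and aligned it to the 10x reference for mm10 with Cell Ranger 7.1.0 with default parameters. The authors deposited counts, that is, whole UMIs per gene and barcode without normalization, here for 11789 barcodes with 500 to 174899 UMIs, so they precede the quality limits of the methods (800 and 10000 UMIs, 15% mitochondrial counts). Ambient RNA was not removed here. The upper limit was set to 100000 UMIs here, with 10000 as an alternative.

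Counts were summed over barcodes of a gate and divided by the UMIs of the gate. Python 3.11.15 with numpy 2.4.6, scipy 1.17.1, pandas 2.3.3 and matplotlib 3.10.9 was used. Intervals were exact at 95%, Poisson for levels, binomial (Clopper-Pearson) for shares and conditional binomial for ratios, and cover counting error only. A ratio between gates was given for genes with at least 20 UMIs in the 2 gates together. For calls and ranges of folds from summed UMIs, a group with fewer than 3 UMIs was set to a floor of 3 counts. Ratios given with an interval used the counts as they were. Thinning drew 800 UMIs a barcode without replacement. These functions were tested on simulated data. Barcodes meeting more than 1 gate besides the acinar one (783) and those meeting none (1094) were set aside. Scrublet, run through scanpy 1.11.5 with a rate of 0.08 assumed and a score threshold of 0.260, marked 537 of the kept barcodes as doublets, which were left in except in the alternative. Genes were named by rule: the 6 members, the 6 other gate enzymes, the list of lipid hydrolysis genes, and for each member the 3 genes with the highest Pearson correlation among those with a UMI in at least 20% of thinned acinar barcodes. Positions came from the annotation of GRCm38 and promoters from RefSeq GRCm38.p6, in which 5 of the 6 members were matched. The members, gates and lists were chosen with earlier results of these data known.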

Additional observations from a re-analysis of the deposited data

Results flagged for a closer look

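Barcodes outside the UMI limits entered no comparison, and the 6 genes gave a signal there above the 0.306% of UMIs in the Ptprc gate. In the 752 barcodes at or under 800 UMIs they made up 1.01% of UMIs (exact interval 0.982-1.04), and 34 of these barcodes met the acinar gate. Without those 34 the share was 0.680% (0.656-0.704). Clps per Pnliprp1 was 1.45 and Pnlip gave 2 UMIs among these 752 barcodes. In the 14 barcodes at or over 100000 UMIs the 6 genes made up 10.7% of UMIs (10.7-10.8), 12 of the 14 met the acinar gate, Clps per Pnliprp1 was 0.828 and Cel per Pnliprp1 was 0.244. No cause was tested.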

How the results depend on the processing

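No paired analysis was possible because there was 1 library. All 6 members stayed at least 10-fold higher in the acinar than in the Ptprc gate under each of the 13 alternatives. Only the gate on the 6 other enzymes leaves out Pnliprp1 and Clps, so nothing is read for them from the other alternatives. The folds ranged from 13.0 to 18.4 with the gate at 25%, which moves barcodes with fewer enzyme UMIs into the other gates. The members' share of acinar UMIs, 11.1%, was 11.3% with an upper limit of 10000 UMIs, 11.2% with a mitochondrial limit of 5%, 10.7% and 12.4% with the gate at 5% and at 25%, 11.2% with the gate on the 6 other enzymes, 11.3% without doublets, 11% as a mean over barcodes, 11% after subtracting the ambient level, 11% after thinning to 800 UMIs, and 21.1% with enzyme UMIs left out of the denominator, which is smaller by construction. It was 11.2% without acinar barcodes holding Ptprc or 2% collagen UMIs, an alternative chosen after seeing the data.

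Pnliprp1's share of the members' UMIs, 44.3%, was 40.7% with the upper limit of 10000, 44.6% with the gate at 25%, 44.5% without doublets, 41.1% as a mean over barcodes, 41.0% after thinning and 44.0% without the Ptprc or collagen barcodes. Pnlip per Pnliprp1, 0.00108, was 0.000949 with the upper limit of 10000 and 0.00121 after thinning, and stayed within its interval under the other 11 alternatives. The depth ratio of Pnlip per Pnliprp1, 1.18, was 2.00 after thinning and between 1.16 and 1.28 under the other 11, and an upper limit of 10000 gives no value for it. The members' summed level in nuclear-poor over nuclear barcodes, 1.41, was 1.45 and 1.35 with the cut at 0.5 and 0.1 of the median. Apart from the denominator, causes were not tested. With 1 library the variation between animals is unknown, and pooled mice cannot be told apart. The Pnlip level of the Ptprc gate rests on 1 UMI.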

Other observations

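Barcodes that fell in no gate or in several, and 4 of the gates, were left out of the comparisons. In the 1094 barcodes without a gate Pnliprp1 stood at 1753 CPM, Clps at 2231 CPM and Pnlip at 4.28 CPM (11 UMIs). In the 783 barcodes meeting several gates Pnliprp1 stood at 964 CPM and Clps at 1248 CPM. Pnlip had 0 UMIs in the red cell gate (417 barcodes), the smooth muscle and pericyte gate (99), the Schwann gate (33) and the islet gate (7). Pnliprp1 stood at 1323, 890.5, 1269.6 and 845 CPM in these 4 gates.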
